A study of Rattus norvegicus with 75 samples.

Results

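The lithium effect in the cortical collecting duct (CCD) of the rat kidney was compared between 36 h and 24 h of lithium feeding, gene by gene. For each gene the lithium effect at a time is the mean log2(TPM + 1) of lithium libraries minus that of control libraries, where TPM is a transcript abundance scaled to the same total in every library. The quantity reported here, called the difference, is the effect at 36 h minus the effect at 24 h. It uses 12 of the 75 libraries of the series, 3 in each of 4 groups: control at 24 h, lithium at 24 h, control at 36 h and lithium at 36 h.

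The animals were male Sprague-Dawley rats of 120 to 160 g, housed singly under a 12:12 h light-dark cycle. Control rats ate chow without added lithium, and lithium rats ate food that held 40 mM lithium chloride per kg. CCD segments were microdissected by hand, and poly(A) RNA was read from amplified cDNA. Whether the libraries of a group stem from 1 rat or several is not in the labels. The p-values therefore cover the spread among libraries, part or all of which could be technical. Clock times of tissue collection are not given in the sources used here, and in bulk tubules fewer cells of a type and less RNA per cell cannot be told apart.

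The CCD is built of principal cells, which reabsorb water through the water channel Aqp2 under vasopressin and sodium through the epithelial sodium channel, and of intercalated cells, which move acid and base. Lithium enters principal cells through the sodium channel and is known to cause nephrogenic diabetes insipidus, a loss of the response to vasopressin, together with proliferation of principal cells. A cell that divides first makes the proteins that copy DNA and later, under other transcription factors, the kinases, motors and kinetochore proteins that carry out mitosis. These groups of genes therefore mark successive stretches of the cell cycle.

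The 12 libraries carried the defining genes of the tissue. Aqp2 lay between 1824 and 6580 TPM and the intercalated cell exchanger Slc26a4 between 730 and 2463 TPM in every library. Slc12a3 of the distal convoluted tubule stayed below 1 TPM. Other markers of neighbouring segments were present. Slc34a1 of the proximal tubule ran from 1.09 to 195.2 TPM, Umod from 9.64 to 70.2 TPM and Slc12a1 from 0.19 to 12.3 TPM. Summed marker levels of the other segments are given below. Each library held 11600 to 12143 genes at 1 TPM or more. Mitochondrially encoded genes took 8.8% to 12.3% of the TPM in controls and 7.5% to 8.5% with lithium. Pearson correlations across genes were 0.979 to 0.989 within a group and 0.939 to 0.979 between groups. TPM keeps no sequencing depth, so the depth behind each value is unknown.

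Of 12492 genes tested with limma, 1297 (10.4%) had a difference with an adjusted p below 0.05. The difference was positive for 700 genes (5.6%) and negative for 597 genes (4.78%), and its median over all tested genes was 0.01 on the log2 scale. The lithium effect itself was called for 3456 genes (27.7%) at 24 h, 2678 higher (21.4%) and 778 lower (6.23%), and for 4572 genes (36.6%) at 36 h, 3358 higher (26.9%) and 1214 lower (9.72%). Its median over all tested genes was 0.13 at 24 h and 0.13 at 36 h, so TPM were shifted upward with lithium as a whole. With libraries rescaled by median ratios over genes (median-of-ratios scaling) these medians were −0.01 and −0.006. That scaling called 3264 lithium effects at 24 h and 4413 at 36 h. From 24 h to 36 h the level changed in controls for 1736 genes (13.9%), with 967 increases (7.74%) and 769 decreases (6.16%), and with lithium for 1644 genes (13.2%), with 963 increases (7.71%) and 681 decreases (5.45%). These counts share libraries with the difference and are given side by side.

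The spread that enters this test decides how many genes are called. When the spread was estimated from the 8 CCD groups at 12, 24, 36 and 72 h, 200 genes (1.6%) were called, 111 higher (0.889%) and 89 lower (0.712%). At 72 h the 17 control and 19 lithium libraries were clustered and cut into 4 sets each, a number that was imposed. The clustering used the high or low state of 27 and 21 genes picked from these same libraries. The sets held 4 to 6 libraries, which did not share every state. Each set was an unbroken run of library numbers, although the clustering did not use these numbers. What the runs stand for was not tested. Within sets, libraries joined at up to 6.333 (control) and 4 (lithium) differing states. Between sets the joins were at 10.62 and 6.417 or more. When each early group was counted as 1 such set and the spread was taken from the sets at 72 h, 4 genes (0.032%) were called, Ccl20 higher (0.00801%) and Clu, Timp1 and LOC100363268 lower (0.024%). All other calls below rest on counting libraries as replicates. At an unadjusted p below 0.05 the test with sets as units gave 577 genes.

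Among the 700 genes with a positive difference, 287 had a lithium effect called at 36 h but not at 24 h, 214 an effect called at both times that was larger at 36 h, 122 an effect called at 24 h alone, and 60 effects of opposite sign at the 2 times. Among the 597 with a negative difference the same classes held 268, 28, 179 and 84 genes. An effect of the same sign that was smaller at 36 h was found for 12 genes with a positive and 31 with a negative difference, and neither effect was called for 5 and 7.

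**Figure D1:**
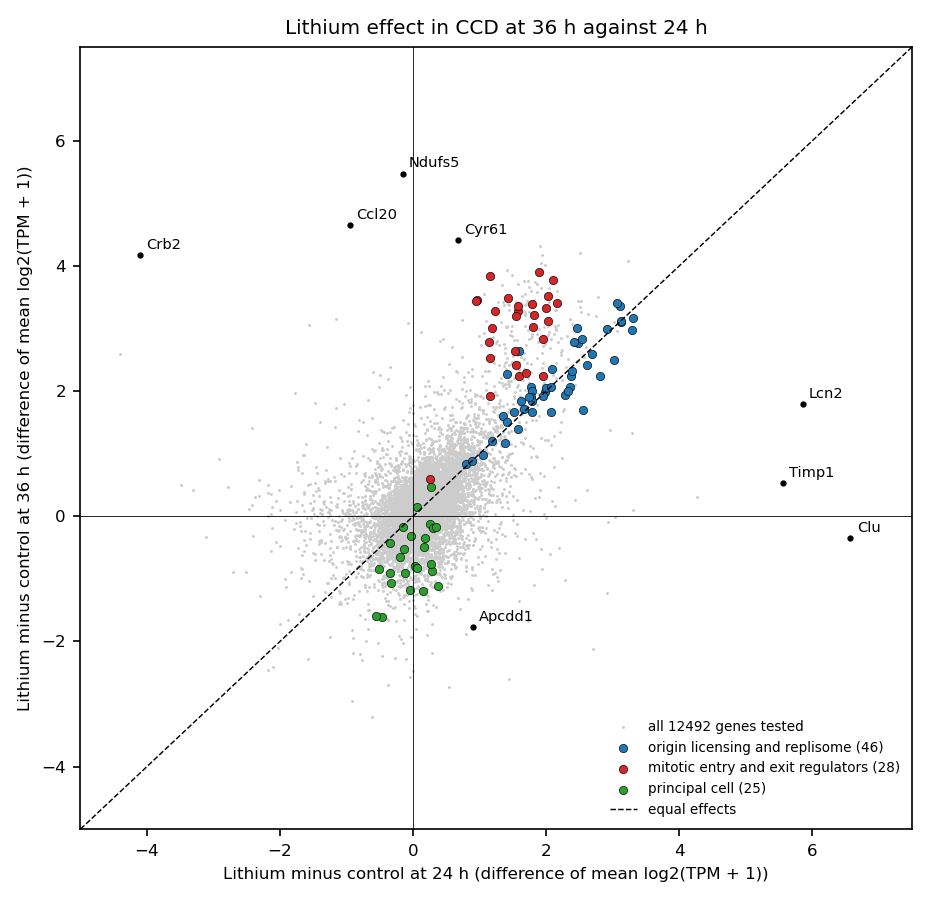
Lithium effect at 36 h (vertical) against 24 h (horizontal), both as lithium minus control in mean log2(TPM + 1), for the 12492 tested genes in grey. The 46 replisome genes in blue lie along the dashed line of equal effects, most of the 28 mitotic regulators in red lie above it, and most of the 25 principal cell genes in green lie below it.

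Genes of DNA replication were higher with lithium at both times, with nearly equal median effects. All 46 tested genes of origin licensing and the replisome had a called, positive lithium effect at 24 h and at 36 h, with median effects of 2.07 and 2.06. Their median difference was 0.01. No member had a called positive difference and 1 had a called negative difference, against 5.6% and 4.78% of all genes. The MCM helicase subunit gene Mcm5 averaged 10.5 TPM in controls and 111.4 TPM with lithium at 24 h, and 13.4 and 111.7 TPM at 36 h (difference −0.32 ± 0.19 SE, adjusted p = 0.33). Mcm5 was picked as an example after its values were seen.

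The replisome gene with the called difference was Prim1, the catalytic subunit of DNA primase. Its control libraries read 21.9, 22.1 and 22.1 TPM at 24 h and 44.6, 41.8 and 51.6 TPM at 36 h. Its lithium libraries read 136.8, 139.2 and 127.1 TPM at 24 h and 149.4, 161.7 and 144.4 TPM at 36 h. Lithium libraries were above controls at both times, and the control libraries at 36 h lay above those at 24 h without overlap. The difference of −0.85 ± 0.12 (SE, adjusted p = 0.00047) thus came with a control change of 1.02 and a lithium change of 0.17, and was not called with the spread of the 8 groups (adjusted p = 0.105).

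Genes of mitosis were higher with lithium at both times, and the effect was larger at 36 h. Of the 28 tested regulators of mitotic entry and exit, 24 had a called positive difference and none a negative one. The shares over all genes were 5.6% and 4.78%. The median difference of the 28 regulators was 1.44 against 0.01 over all genes. Their median lithium effect was 1.57 at 24 h and 3.21 at 36 h. Of 52 genes of the spindle, kinetochore and cytokinesis, 42 had a called positive difference and none a negative one, with a median difference of 1.43 and median effects of 1.53 and 3.11. With the spread of the 8 CCD groups 10 of the 28 and 16 of the 52 were called, and with sets as units none.

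The larger part of this difference lay in the control libraries. From 24 h to 36 h the control level of the 28 mitotic regulators fell by a median of 1.03 on the log2 scale, with 22 called decreases and no called increase. The lithium level of the same genes rose by a median of 0.46, with 10 called increases. For the 52 spindle and kinetochore genes the median control change was −1.03, with 40 called decreases and 1 called increase, and the median lithium change was 0.43, with 10 called increases. The replisome genes changed by a median of 0.18 in both diets.

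The mean log2(TPM + 1) over the 28 mitotic regulators shows where the 36 h controls stood. It was 3.90, 3.93 and 4.16 in the sorted control libraries at 24 h and 3.02, 3.04 and 3.06 at 36 h. In the other control groups it ranged from 3.44 to 3.84 at 12 h (n = 3) and from 3.22 to 4.23 at 72 h (n = 17). The 36 h controls thus lay below every other control library of the CCD. With lithium the level was 5.21 to 5.83 at 24 h, 5.97 to 6.07 at 36 h, 3.55 and 4.18 in the 2 libraries at 12 h and 4.70 to 5.46 at 72 h (n = 19).

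**Figure D2:**
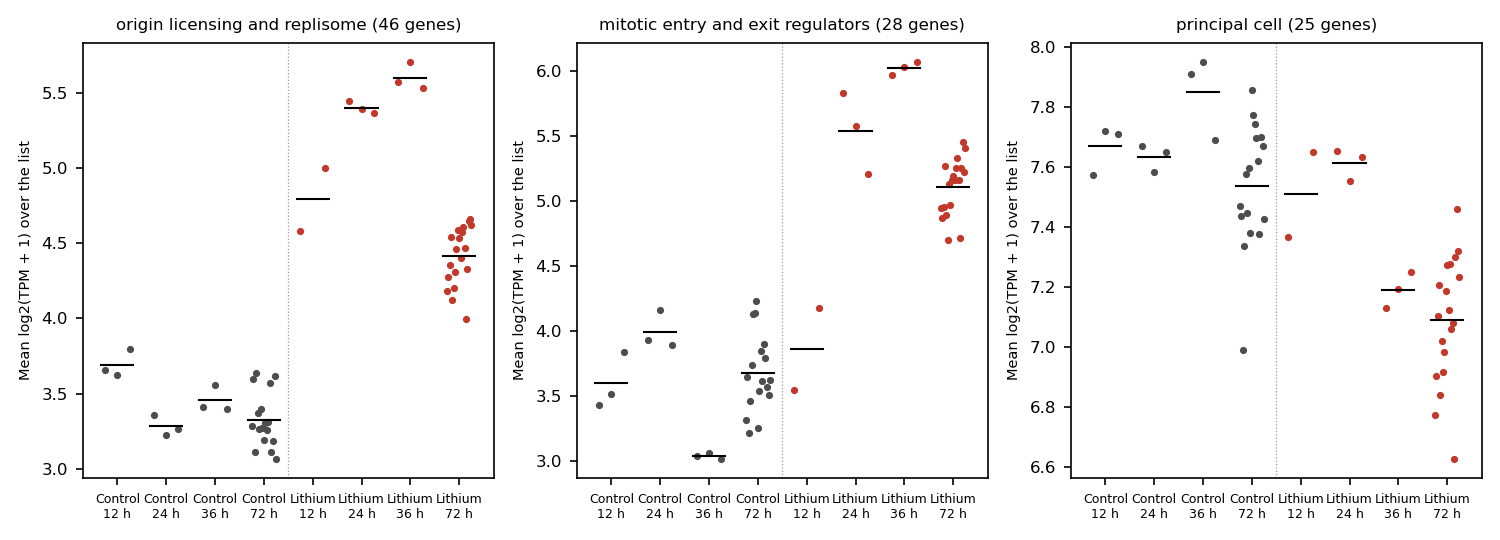
Mean log2(TPM + 1) over the genes of 3 lists in each CCD library, by diet and hours on the diet; points are libraries and bars are group means. Replisome levels are 5.37 to 5.70 with lithium at 24 h and 36 h, the lowest mitotic levels are those of the 36 h controls (3.02 to 3.06), and the principal cell group means are lowest with lithium at 36 h and 72 h.

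Ube2c, the ubiquitin-conjugating enzyme that works with the anaphase-promoting complex, showed the pattern in full. Controls read 98.9, 116.4 and 90.4 TPM at 24 h and 26.5, 26.2 and 26.3 TPM at 36 h. Lithium libraries read 296.9, 248.7 and 158.0 TPM at 24 h and 388.1, 338.3 and 449.6 TPM at 36 h. No group overlapped another, and the difference was 2.68 ± 0.26 (SE, adjusted p = 3.4e-05). It was called with the spread of the 8 groups (adjusted p = 0.000286).

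Aurkb, the kinase of the chromosomal passenger complex, read 17.2, 19.4 and 16.9 TPM in controls at 24 h and 5.13, 4.31 and 7.72 TPM at 36 h. With lithium it read 76.5, 71.5 and 60.1 TPM at 24 h and 95.0, 96.6 and 99.2 TPM at 36 h (difference 2.00 ± 0.22 SE, adjusted p = 7.6e-05). The centrosomal kinase gene Nek2 had a difference of 2.48 ± 0.27 and the Cdk1-binding subunit gene Cks2 one of 1.71 ± 0.21 (adjusted p = 8.2e-05 and 0.0002). Ccnb1, the cyclin that drives mitotic entry, averaged 45.5 and 93.0 TPM in control and lithium libraries at 24 h and 11.9 and 139.6 TPM at 36 h (difference 2.495 ± 0.35, adjusted p = 0.00057). Ccnb1 was picked after its values were seen. The 4 regulators without a called difference were Cdc25c, Fzr1, Mad2l1 and Fbxo5, with differences of 0.29 to 0.64.

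Prc1, which bundles the microtubules of the central spindle, read 48.1, 57.4 and 45.4 TPM in controls at 24 h and 11.8, 14.0 and 11.7 TPM at 36 h. With lithium it read 191.9, 142.9 and 105.5 TPM at 24 h and 195.9, 188.2 and 200.6 TPM at 36 h. The lithium libraries of the 2 times overlapped, whereas the controls did not (difference 2.37 ± 0.23 SE, adjusted p = 4e-05). The kinetochore genes Spc24 and Ndc80 had differences of 1.43 ± 0.12 and 1.60 ± 0.19, and the kinesin gene Kifc1 one of 1.67 ± 0.20. Mki67, the proliferation antigen, chosen here for its wide use, averaged 7.9 and 24.6 TPM at 24 h and 2.3 and 22.6 TPM at 36 h in control and lithium libraries (difference 1.38 ± 0.34 SE, adjusted p = 0.021).

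Between the replisome and mitotic groups stood the genes of nucleotide supply and the G1/S transition, with a median difference of 0.28. Of 20 tested, 3 had a called positive difference and none a negative one, against 5.6% and 4.78% of all genes. Rrm2, the small subunit of ribonucleotide reductase, read 22.1, 18.2 and 16.6 TPM in controls at 24 h and 6.65, 8.67 and 7.41 TPM at 36 h. With lithium it read 81.9, 64.4 and 52.8 TPM at 24 h and 108.5, 101.9 and 110.4 TPM at 36 h (difference 1.92 ± 0.21 SE, adjusted p = 8.6e-05). Thymidine kinase gene Tk1 had a difference of 0.87 ± 0.15 and E2f7, a repressor of E2F targets, one of 0.91 ± 0.27 (adjusted p = 0.0025 and 0.048). The call of E2f7 was lost in 11 of 12 fits that left out 1 library and under 6 other alternatives, with adjusted p = 0.521 with the spread of the 8 groups. Of 19 genes of chromatin condensation and cohesion 7 had a called positive difference, led by topoisomerase gene Top2a at 1.82 ± 0.30 (adjusted p = 0.0019). The count was 1 to 7 when 1 library at a time was left out and 0 with the spread of the 8 groups.

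Upstream sequence of these genes is shown because the members of each group moved together. RefSeq promoter sequences (build GRCr8) were matched by symbol to 40 of the 46 replisome genes, 21 of the 28 mitotic regulators and 44 of the 52 spindle genes, and the 250 bases before the annotated start were searched on both strands. The cell cycle homology region (CHR), searched as TTTGAA, was found in 8 of 21 mitotic promoters (38.1%), 20 of 44 spindle promoters (45.5%) and 3 of 40 replisome promoters (7.5%), against 16% of all 27457 promoters. The E2F motif, searched as TTTCCCGC, TTTGGCGC, TTTCGCGC or TTTGCCGC, was found in 1 of 21 (4.76%), 2 of 44 (4.55%) and 9 of 40 (22.5%), against 1.81% of all. The CCAAT box, searched as CCAAT, was found in 66.7%, 63.6% and 62.5%, against 34.3%. A match is a run of letters and not a measured binding site.

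The 150 bases before the start are printed 5′ to 3′ on the gene's strand with motifs in capitals. For mitosis they are those of Nek2 (chr13:105936659-105936808, plus strand) and Cks2 (chr17:13727520-13727669, minus strand), the 2 mitotic regulators of smallest p with an entry, with Prc1 (chr1:143659331-143659480, plus strand), the spindle gene of smallest p whose printed bases hold a CHR. Capitals mark CHR and CCAAT matches. In Cks2 the CHR match begins 19 bases before the start and in Prc1 18 bases before it, each with a CCAAT box 42 and 50 bases before the start, whereas the printed bases of Nek2 hold CCAAT boxes alone.
Nek2: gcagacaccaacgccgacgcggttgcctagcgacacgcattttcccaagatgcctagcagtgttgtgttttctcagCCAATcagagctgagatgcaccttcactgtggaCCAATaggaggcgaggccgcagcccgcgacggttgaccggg
Cks2: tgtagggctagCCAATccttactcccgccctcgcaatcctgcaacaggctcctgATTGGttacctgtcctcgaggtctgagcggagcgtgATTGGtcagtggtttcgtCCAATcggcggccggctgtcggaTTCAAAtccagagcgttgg
Prc1: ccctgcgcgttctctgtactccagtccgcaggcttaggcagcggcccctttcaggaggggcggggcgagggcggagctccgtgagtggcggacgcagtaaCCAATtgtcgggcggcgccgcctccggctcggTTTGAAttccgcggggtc

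For replication the upstream bases are those of Prim1 (chr7:1031312-1031461, plus strand) and of Mcm6 (chr13:42404353-42404502, minus strand), the replisome gene of smallest p whose printed bases hold an E2F motif. Capitals mark E2F and CCAAT matches. Mcm6 holds a pair of overlapping E2F matches that begin 139 and 135 bases before the start, and Prim1 holds no match in this window. Mcm6 averaged 21.6 and 183.0 TPM in control and lithium libraries at 24 h and 31.01 and 177.5 TPM at 36 h (difference −0.53 ± 0.17 SE, adjusted p = 0.07). Ticrr, the other replisome gene of smallest p with an entry, holds no E2F match and is not printed.
Prim1: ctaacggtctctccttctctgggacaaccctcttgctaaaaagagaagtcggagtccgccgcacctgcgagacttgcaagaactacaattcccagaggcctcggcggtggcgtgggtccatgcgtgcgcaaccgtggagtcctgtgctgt
Mcm6: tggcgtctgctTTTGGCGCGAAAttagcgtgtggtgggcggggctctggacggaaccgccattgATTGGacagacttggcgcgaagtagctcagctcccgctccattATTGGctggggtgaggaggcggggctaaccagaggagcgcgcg

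**Figure D3:**
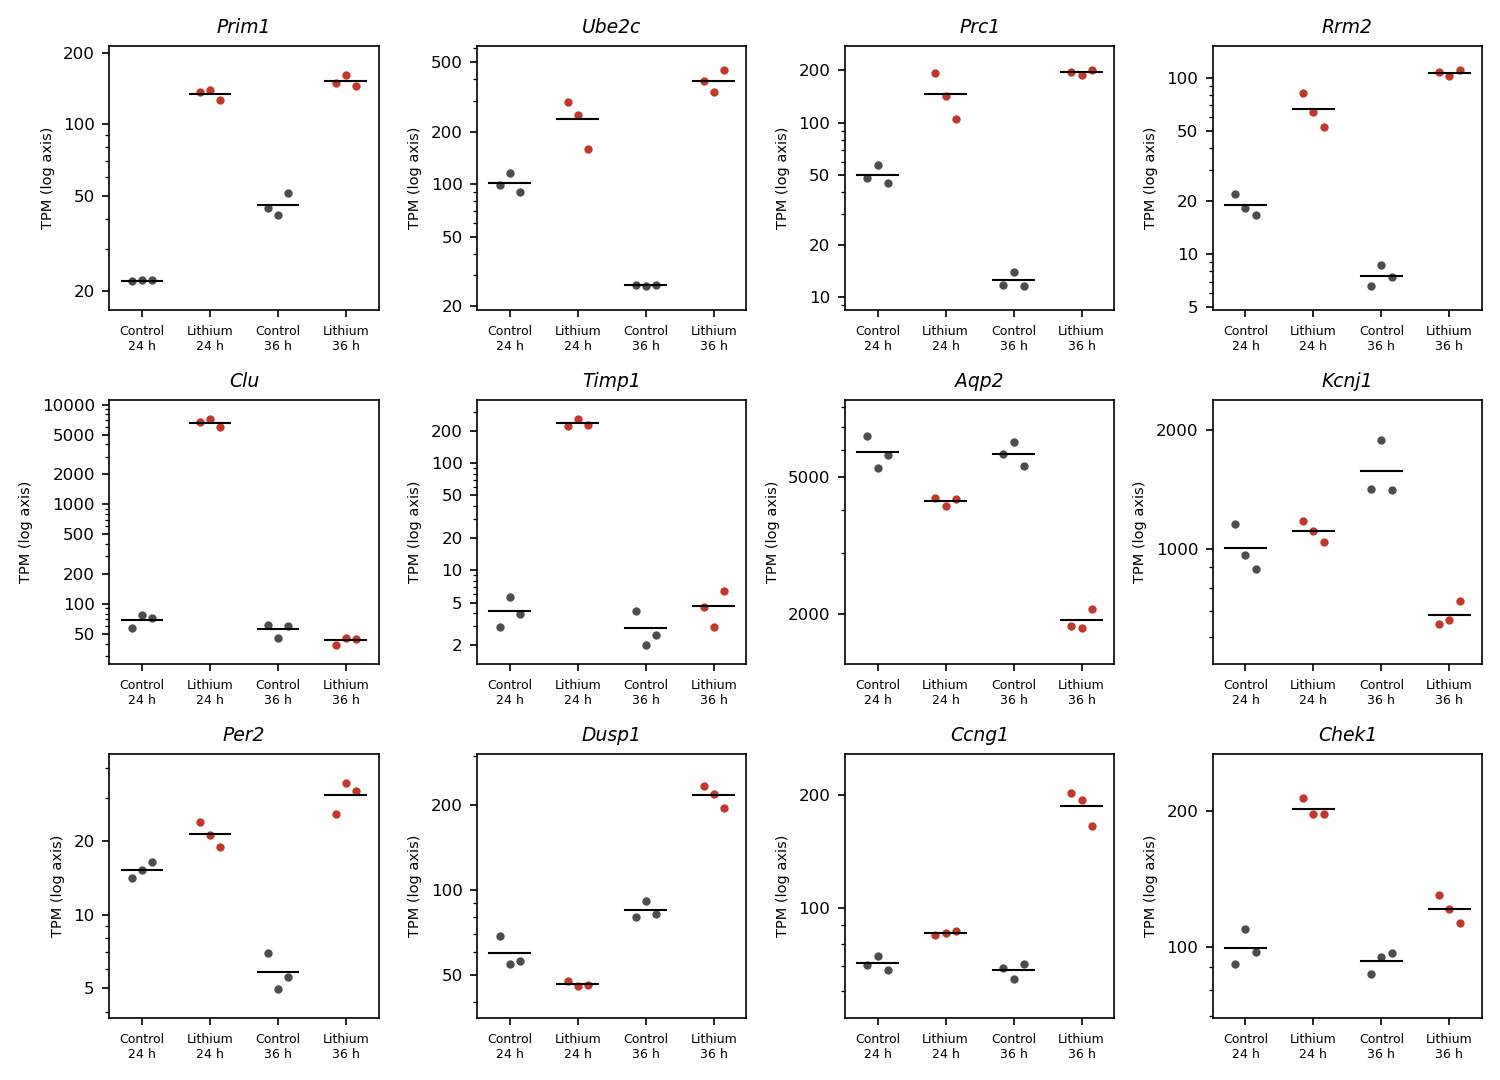
TPM of 12 genes in each of the 12 libraries on a log axis; points are libraries and bars are group means (n = 3). Prim1 differs mainly in its controls, Ube2c and Rrm2 have lower controls and higher lithium libraries at 36 h, Prc1 has lower controls at 36 h and lithium libraries that overlap between the times, Clu and Timp1 are high in lithium libraries at 24 h alone, and Aqp2 and Kcnj1 are lowest in lithium libraries at 36 h.

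Checkpoint and repair genes were higher with lithium at both times. Of 26 tested genes, 25 had a called positive lithium effect at 24 h and 26 at 36 h, and the difference was called positive for 2 genes, one of them Fanci, and negative for 2, one of them Chek1, against 10.4% of all genes called. When 1 library at a time was left out, 0 to 4 were called positive and 1 to 2 negative, and none was called with the spread of the 8 groups. Chek1, the kinase of the replication checkpoint, read 91.6, 109.5 and 97.2 TPM in controls at 24 h and 86.9, 94.8 and 96.7 TPM at 36 h. With lithium it read 214.5, 197.6 and 197.1 TPM at 24 h and 130.0, 121.1 and 113.0 TPM at 36 h. Lithium libraries were above controls at both times, and the effect was 1.03 at 24 h and 0.38 at 36 h (difference −0.64 ± 0.11 SE, adjusted p = 0.0032; adjusted p = 0.854 with the spread of the 8 groups).

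Targets of the tumour suppressor p53 split. Of 22 tested, 8 had a called positive and 3 a called negative difference, against 5.6% and 4.78% of all genes, with a median of 0.49. Ccng1, a cyclin induced by p53, read 70.4, 74.4 and 68.3 TPM in controls at 24 h and 69.0, 64.4 and 70.8 TPM at 36 h. With lithium it read 84.6, 85.6 and 86.8 TPM at 24 h and 202.7, 193.2 and 164.7 TPM at 36 h (difference 1.17 ± 0.11 SE, adjusted p = 3.4e-05). Controls overlapped and lithium libraries at 36 h stood above the rest. The apoptosis effector gene Bax, the nuclease gene Aen, the Akt inhibitor gene Phlda3 and the cell cycle inhibitor gene Cdkn1a had differences of 0.90, 1.26, 1.92 and 1.48. Cdkn1a averaged 4.2 and 13.4 TPM at 24 h and 3.9 and 35.6 TPM at 36 h in control and lithium libraries.

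Pmaip1, which encodes the pro-apoptotic protein Noxa, went the other way. Its controls read 6.49, 4.30 and 3.63 TPM at 24 h and 20.0, 27.5 and 20.1 TPM at 36 h, while lithium libraries read 33.3, 27.4 and 29.2 TPM at 24 h and 25.1, 36.4 and 21.6 TPM at 36 h. The lithium libraries overlapped between the times and the controls did not (difference −2.17 ± 0.29 SE, adjusted p = 0.0004). Sesn1 and Tp53inp1 had differences of −0.86 and −1.16. With the spread of the 8 groups 3 of the 8 and 1 of the 3 were called.

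The injury genes Clu, Timp1 and Lcn2 were higher with lithium at 24 h, and their lithium levels fell from 24 h to 36 h. Clu, which encodes the secreted chaperone clusterin, read 57.1, 76.9 and 72.4 TPM in controls and 6655, 7253 and 5952 TPM with lithium at 24 h. At 36 h it read 62.0, 45.2 and 59.5 TPM in controls and 38.6, 45.9 and 44.6 TPM with lithium. The lithium effect was 6.57 at 24 h (adjusted p = 4.4e-12) and −0.35 at 36 h (adjusted p = 0.053), a difference of −6.93 ± 0.19 (SE, adjusted p = 1.9e-10; 0.00101 with sets as units). At 12 h and 72 h the effect was 0.47 and 0.12, and at 72 h Clu ranged from 23.3 to 96.0 TPM in 17 control libraries and from 30.8 to 87.2 TPM in 19 lithium libraries.

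Timp1, an inhibitor of matrix metalloproteinases, read 2.95, 5.59 and 3.95 TPM in controls and 224.6, 257.4 and 229.8 TPM with lithium at 24 h. At 36 h it read 4.15, 2.03 and 2.47 TPM in controls and 4.56, 2.95 and 6.41 TPM with lithium, and these overlapped (difference −5.03 ± 0.35 SE, adjusted p = 2.4e-06; 0.0282 with sets as units). Lcn2, the injury marker lipocalin 2 (NGAL), read 2.71, 3.79 and 6.07 TPM in controls and 261.4, 342.7 and 270.1 TPM with lithium at 24 h. At 36 h it read 3.00, 9.51 and 1.35 TPM and 14.7, 20.9 and 11.1 TPM, so lithium stayed above control at both times (difference −4.06 ± 0.59 SE, adjusted p = 0.00074; 0.394 with sets as units).

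In the injury list as a whole 4 of 21 tested genes had a called positive and 7 a called negative difference, with a median of −0.20. The shares over all genes were 5.6% and 4.78%. Spp1, the matrix protein osteopontin, averaged 212.1 and 791.4 TPM at 24 h and 75.5 and 122.1 TPM at 36 h in control and lithium libraries (difference −1.21 ± 0.16, adjusted p = 0.00039). Tnfrsf12a, the receptor of the cytokine TWEAK, had a positive difference. It read 58.0, 75.6 and 65.5 TPM in controls and 80.0, 81.7 and 85.3 TPM with lithium at 24 h, and 50.0, 46.6 and 51.7 TPM against 203.4, 217.8 and 178.7 TPM at 36 h (difference 1.68 ± 0.14 SE, adjusted p = 1e-05). The keratin genes Krt8 and Krt18 had differences of 0.76 and 0.56. With the spread of the 8 groups 1 of the 4 and 5 of the 7 were called.

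Genes of the principal cell were near control level at 24 h and lower with lithium at 36 h. Of 25 tested markers, 13 had a called negative difference and none a positive one, against 4.78% and 5.6% of all genes. The median difference of these markers was −0.56 against 0.01 over all genes. Their median lithium effect was 0.02 at 24 h, with 2 called higher and 4 lower, and −0.77 at 36 h, with 1 called higher and 18 lower. From 24 h to 36 h they changed by a median of 0.14 in controls and −0.51 with lithium. With the spread of the 8 groups 6 of the 13 were called, and with sets as units none.

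The summed TPM of the 26 principal cell markers in the table was 24185 to 26997 in controls and 23477 to 26138 with lithium at 24 h, and 24841 to 30288 and 14636 to 15791 at 36 h. The lithium libraries at 36 h thus lay below all others. Abundant transcripts weigh most in this sum. With lithium, Aqp2, Aqp3 and Hsd11b2 each read at least 4124 TPM at 24 h and at most 3177 TPM at 36 h. The same sum over 24 intercalated cell markers was 18419 to 19653 with lithium at 24 h and 17845 to 18487 at 36 h, against 22823 to 24530 and 19564 to 21175 in controls.

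Aqp2 read 6580, 5325 and 5800 TPM in controls and 4348, 4124 and 4323 TPM with lithium at 24 h. Its 36 h values were 5853, 6320 and 5389 TPM in controls and 1844, 1824 and 2072 TPM with lithium. Lithium was below control at both times, with effects of −0.46 and −1.61 (difference −1.15 ± 0.13 SE, adjusted p = 8.2e-05; 0.0209 with the spread of the 8 groups). Kcnj1, the secretory potassium channel ROMK, read 1161, 966 and 892 TPM in controls and 1180, 1115 and 1041 TPM with lithium at 24 h, which overlapped. Its 36 h values were 1425, 1892 and 1414 TPM against 648, 662 and 738 TPM (difference −1.35 ± 0.17 SE, adjusted p = 0.00022).

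Hsd11b2, the enzyme that shields the mineralocorticoid receptor from glucocorticoids, changed sign. It read 4346, 4252 and 4472 TPM in controls and 5793, 4848 and 5393 TPM with lithium at 24 h, and 5634, 5891 and 4798 TPM against 2755, 2922 and 3177 TPM at 36 h. Lithium libraries lay above controls at 24 h and below them at 36 h (effects 0.29 and −0.88, difference −1.17 ± 0.13 SE, adjusted p = 8.6e-05). The water channel genes Aqp3 and Aqp4 had effects of 0.02 and 0.37 at 24 h, neither called, and −0.79 and −1.12 at 36 h, both called.

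The vasopressin receptor gene Avpr2 read 917, 738 and 834 TPM in controls and 646, 628 and 700 TPM with lithium at 24 h, and 944, 1009 and 854 TPM against 440, 444 and 457 TPM at 36 h (difference −0.73 ± 0.12 SE, adjusted p = 0.0016). The 3 sodium channel subunits were lower with lithium at 36 h, and the subunits were not tested against each other. Scnn1b had effects of −0.56 and −1.59 (difference −1.03 ± 0.15, adjusted p = 0.0006). Scnn1a had effects of −0.52 and −0.85 (difference −0.33 ± 0.15, adjusted p = 0.19) and Scnn1g effects of −0.20 and −0.66 (difference −0.45 ± 0.14, adjusted p = 0.055). The difference of Scnn1g passed with a filter of 5 TPM (adjusted p = 0.049), with median-of-ratios scaling (0.0267), without control 36 h replicate 3 (0.00478) and without lithium 24 h replicate 2 (0.0479). Fxyd4, a regulator of the sodium pump, had effects of −0.05 and −1.18 (difference −1.13 ± 0.19, adjusted p = 0.0021).

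Of 22 tested intercalated cell genes, 3 had a called positive difference, against 5.6% of all genes, and none a negative one, with a median of 0.07. None of the 3 was called with the spread of the 8 groups. The carbonic anhydrase gene Car12, the ammonium transporter gene Rhbg and the proton pump gene Atp6v1g3 had lithium effects of −0.56, −0.81 and −0.70 at 24 h, all called, and 0.13, −0.14 and 0.01 at 36 h, none called. The anion exchanger gene Slc4a1 had a difference of 0.48 ± 0.27 and Slc26a4 one of −0.27 ± 0.23 (adjusted p = 0.3 and 0.52). Claudin gene Cldn19, a thick ascending limb marker in the list, read 165.8, 132.0 and 142.8 TPM in controls and 137.6, 121.2 and 129.9 TPM with lithium at 24 h, and 189.3, 194.0 and 158.2 TPM against 44.0, 46.6 and 45.5 TPM at 36 h (difference −1.79 ± 0.14 SE, adjusted p = 5.1e-06).

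Cytoskeletal genes had mostly positive differences. Of 29 tested genes of actin and tubulin, 14 had a called positive difference and 1 a negative one, against 5.6% and 4.78% of all genes. The median was 0.34, and 5 and 1 were called with the spread of the 8 groups. Tubb4b, a beta-tubulin, read 225.1, 225.8 and 230.0 TPM in controls and 389.2, 327.7 and 275.3 TPM with lithium at 24 h, and 146.4, 149.9 and 141.5 TPM against 570.2, 548.1 and 615.0 TPM at 36 h (difference 1.45 ± 0.14 SE, adjusted p = 3.4e-05). No group overlapped another. Tagln2, an actin-binding protein, had a difference of 0.99 ± 0.10 and Tuba1a one of 0.97 ± 0.10. The exception was Scin, an actin-severing protein, at 0.76, 1.66 and 2.53 TPM in controls at 24 h against 15.9 to 26.5 TPM in the other 9 libraries (difference −3.20 ± 0.30 SE, adjusted p = 2.5e-05).

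Genes of ribosome biogenesis had a called positive lithium effect in 7 of 25 tested genes at 24 h, against 21.4% of all genes, and in 24 of 25 at 36 h, against 26.9%. The difference was called positive for 7 and negative for none, against 5.6% and 4.78% of all genes, with a median of 0.47. Gnl3, the nucleolar GTPase nucleostemin, and Gar1, a subunit of the pseudouridylation complex, had differences of 0.93 ± 0.17 and 1.36 ± 0.30 (adjusted p = 0.004 and 0.012). Between 3 and 6 were called when 1 library at a time was left out, and none with the spread of the 8 groups. The respiratory chain list had no called difference among 30 tested genes, against 10.4% of all genes, and a median of 0.09. This list does not hold Ndufs5 of respiratory complex I, which had a difference of 5.635 and is described below.

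**Figure D4:**
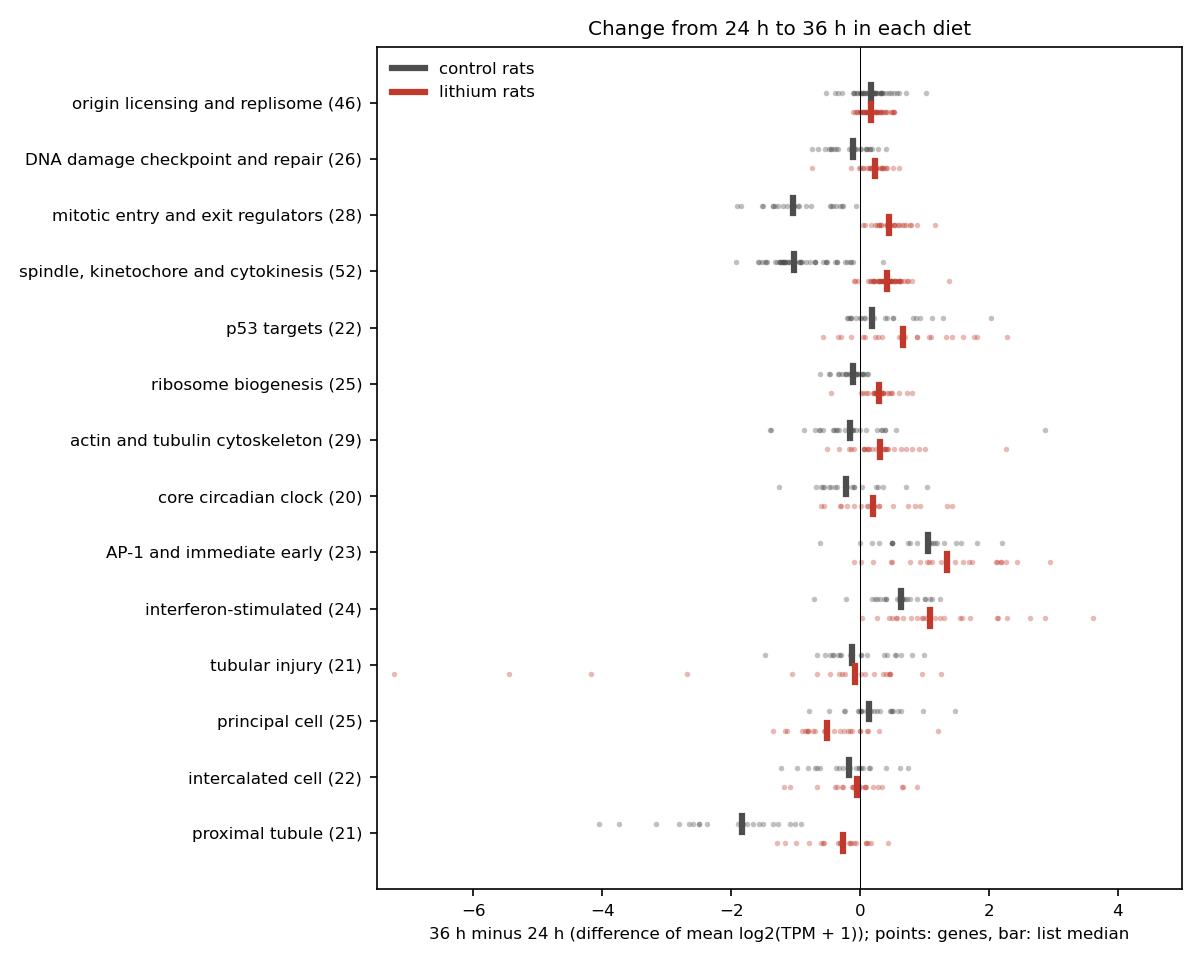
Change from 24 h to 36 h in mean log2(TPM + 1) within control rats (grey) and within lithium rats (red), by gene list; points are genes and bars are list medians. For the mitotic and spindle lists the control bars lie near −1.03 and the lithium bars near 0.46 and 0.43, for the principal cell list the lithium bar lies at −0.51, and for the proximal tubule list the control bar lies at −1.83.

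Genes of the circadian clock had differences in both directions. Of 20 tested, 8 had a called positive difference (Per2, Per3, Nr1d1, Nr1d2, Bhlhe40, Ciart, Dbp and Tef) and 4 a called negative one (Arntl, Npas2, Nfil3 and Fbxl21). The shares over all genes were 5.6% and 4.78%. Arntl and Npas2 encode activators of the loop, and the period, Nr1d and Dbp genes are among those the activators switch on. Per2 read 14.2, 15.2 and 16.4 TPM in controls and 24.0, 21.1 and 19.0 TPM with lithium at 24 h, and 6.95, 4.97 and 5.57 TPM against 25.9, 34.6 and 32.2 TPM at 36 h (difference 1.77 ± 0.20 SE, adjusted p = 0.00011). The control change was −1.26 and the lithium change 0.51.

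Nr1d2 and the repressor gene Bhlhe40 changed sign. Nr1d2 had effects of −0.67 and 0.62 and Bhlhe40 effects of −1.05 and 0.38 at 24 h and 36 h. Nr1d2 read 25.9, 22.9 and 24.9 TPM in controls and 13.8, 15.7 and 15.9 TPM with lithium at 24 h, and 18.8, 20.4 and 17.6 TPM against 28.6, 33.3 and 27.2 TPM at 36 h. Lithium libraries lay below controls at 24 h and above them at 36 h. Arntl had effects of −0.39 and −1.05 (difference −0.66 ± 0.18, adjusted p = 0.036). Within a diet, hours on the diet and hour of the day cannot be told apart. With the spread of the 8 groups 1 of the 8 genes, Bhlhe40, and none of the 4 were called. When 1 library at a time was left out, 8 to 9 genes were called positive and 0 to 4 negative.

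Upstream bases are shown for Per2 (chr9:99496994-99497143, minus strand) and for Ciart (chr2:186112247-186112396, minus strand), the clock gene of smallest p whose printed bases hold an E-box, searched as CACGTG. Of 16 clock promoters with an entry 3 (18.8%) held it within 250 bases, against 5.79% of all promoters. Capitals mark the E-box, which begins 93, 35 and 21 bases before the start of Ciart. Neither the printed bases of Per2 nor those of Nr1d2, which are not printed, hold CACGTG. Other forms of the E-box were not searched.
Per2: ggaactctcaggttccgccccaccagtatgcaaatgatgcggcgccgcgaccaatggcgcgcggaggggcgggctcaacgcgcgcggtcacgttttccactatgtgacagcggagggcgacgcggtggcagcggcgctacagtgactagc
Ciart: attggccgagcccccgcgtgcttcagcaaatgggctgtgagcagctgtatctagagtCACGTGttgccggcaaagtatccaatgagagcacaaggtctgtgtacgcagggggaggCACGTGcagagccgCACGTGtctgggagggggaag

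Of 23 tested immediate early genes, 17 rose and 1 fell from 24 h to 36 h in controls (median change 1.06), and 18 rose and none fell with lithium (median change 1.35). The lithium effect was called lower for 10 and higher for 1 at 24 h, and lower for 7 and higher for 6 at 36 h. Over all genes it was called lower for 6.23% and higher for 21.4% at 24 h, and for 9.72% and 26.9% at 36 h. The difference was called positive for 7 and negative for 1, against 5.6% and 4.78% of all genes (1 and 1 with the spread of the 8 groups). Dusp1, the phosphatase that switches off MAP kinases, read 68.8, 54.4 and 55.8 TPM in controls and 47.6, 45.6 and 45.9 TPM with lithium at 24 h, and 80.1, 91.7 and 82.1 TPM against 234.2, 219.9 and 195.1 TPM at 36 h (difference 1.69 ± 0.14 SE, adjusted p = 8.9e-06). Lithium libraries lay below controls at 24 h and above them at 36 h.

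The nuclear receptor gene Nr4a1 likewise had effects of −1.32 and 0.56 (difference 1.89 ± 0.20, adjusted p = 6.3e-05). The antiproliferative gene Btg1 had effects of 0.02 and −0.85 (difference −0.87 ± 0.10, adjusted p = 0.00016). The matrix signal gene Cyr61 read 7.64, 3.86 and 5.46 TPM in controls and 7.75, 9.92 and 10.4 TPM with lithium at 24 h. At 36 h it read 6.16, 4.90 and 5.22 TPM against 152.2, 151.7 and 106.6 TPM (difference 3.74 ± 0.29 SE, adjusted p = 5.1e-06). At 12 h and 72 h Cyr61 had effects of 2.497 and −0.35.

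Of 24 interferon-stimulated genes 5 had a called positive difference and none a negative one, against 5.6% and 4.78% of all genes, with a median of 0.55. The lithium effect was called lower for 8 at 24 h and for none at 36 h, against 6.23% and 9.72% of all genes. It was called higher for 3 and 8, against 21.4% and 26.9%. Isg15, a ubiquitin-like modifier, read 16.4, 22.6 and 28.8 TPM in controls and 10.4, 9.10 and 9.80 TPM with lithium at 24 h, and 33.7, 45.1 and 26.3 TPM against 85.1, 54.2 and 62.0 TPM at 36 h (difference 2.03 ± 0.31 SE, adjusted p = 0.001). The GTPase gene Mx2 had a difference of 3.84 ± 0.52 and the antiviral synthetase gene Oas1a one of 2.09 ± 0.40. Only Mx2 of the 5 was called with the spread of the 8 groups (adjusted p = 0.0282).

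In the list of NF-kB genes and chemokines 5 of 25 had a called positive and 1 a called negative difference, against 5.6% and 4.78% of all genes. The counts were 2 to 4 and 0 to 3 when 1 library at a time was left out. Ccl20, a chemokine for lymphocytes and dendritic cells, read 1.15, 14.7 and 32.0 TPM in controls and 3.71, 3.50 and 6.28 TPM with lithium at 24 h, which overlapped. Its 36 h values were 0.11, 0.63 and 2.05 TPM against 45.3, 31 and 57.7 TPM (difference 5.60 ± 1.03 SE, adjusted p = 0.0039; 0.0155 with sets as units). At 72 h the effect was 5.38, with 0.09 to 11.3 TPM in controls and 62.4 to 223.0 TPM with lithium, and at 12 h it was 2.60. The T cell chemokine gene Cxcl10 averaged 4.5 and 19.5 TPM at 24 h and 2.8 and 63.9 TPM at 36 h in control and lithium libraries (difference 2.23 ± 0.64, adjusted p = 0.042). Its call was lost in 9 of 12 fits that left out 1 library, and the adjusted p was 0.0976 with the spread of the 8 groups. The summed TPM of 16 leukocyte markers was 218.7 to 473.1 in controls and 222.8 to 544.8 with lithium at 24 h, and 344.5 to 616.1 and 264.3 to 490.2 at 36 h.

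Some of the largest differences came from genes that were near 0 or low in some groups and high in others. Crb2, a polarity protein, read 22.6, 14.7 and 17.8 TPM in controls at 24 h and 16.0, 21.2 and 18.3 TPM with lithium at 36 h, and at most 0.22 TPM in the other 6 libraries (difference 8.28 ± 0.25 SE, adjusted p = 4.1e-10). At 72 h it was at most 0.07 TPM in controls and at most 6.25 TPM with lithium. Ndufs5 of respiratory complex I read 224.1, 211.1 and 169.2 TPM with lithium at 36 h and 0.57 to 4.81 TPM in the other 9 libraries, and its 72 h libraries ranged from 0 to 7.70 TPM. Pfdn6, a prefoldin subunit, read 117.9, 114.3 and 119.1 TPM with lithium at 36 h and 7.85 to 13.9 TPM elsewhere, while at 72 h its libraries spanned 9.06 to 70.1 TPM within the control diet.

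The zinc transporter gene Slc39a1, the Wnt target gene Apcdd1 and the MHC class I genes RT1-CE1 and RT1-CE3 were among the largest negative differences. Slc39a1 read 47.5, 49.5 and 50.0 TPM with lithium at 24 h and 4.82 to 7.92 TPM in the other 9 libraries, and spanned 3.86 to 51.4 TPM among controls at 72 h. Apcdd1 read 71.8, 87.1 and 77.4 TPM in controls at 36 h and 8.66 to 24.3 TPM elsewhere. RT1-CE1 had a difference of −4.14 ± 0.25 and RT1-CE3 one of −2.69 ± 0.24, and these near-identical genes share reads, so their values are uncertain. Of the 1297 called genes 21 (1.62%), and of all 12492 tested genes 38 (0.304%), had 3 libraries of 1 group under 1 TPM and 3 of another at 5 TPM or more. Whether such states belong to rats or to conditions was not tested.

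Markers of another segment moved with 1 group. Of 21 tested proximal tubule genes 6 had a called positive difference and none a negative one, against 5.6% and 4.78% of all genes. The median difference of the 21 genes was 1.59. Their lithium effect had a median of −1.37 at 24 h, with 10 called lower, and 0.12 at 36 h. The summed TPM of the 23 markers in the table was 932.0, 1217 and 2887 in controls at 24 h and 141.0 to 732.6 in the other 9 libraries. The gluconeogenic enzyme gene Pck1, the secreted peroxidase gene Gpx3 and the urea cycle gene Ass1 belong to this list and were among the 15 largest positive differences (3.75 ± 0.87, 3.83 ± 1.06 and 2.89 ± 0.64). Of the 6 genes 1 was called with the spread of the 8 groups. The call of Gpx3 was lost in 7 of 12 fits that left out 1 library, over which its difference ran from 2.92 to 4.66. Gpx3 read 235.3, 251.2 and 901.8 TPM in controls at 24 h and 15.1 to 262.6 TPM elsewhere. The part of proximal tubule RNA in the other differences was not tested.

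Marker lists of other segments and cell types are given by their summed TPM. For 13 markers of the distal convoluted and connecting tubule it was 308.8 to 806.4 in controls and 415.1 to 607.5 with lithium at 24 h, and 293.9 to 310.5 and 449.4 to 531.1 at 36 h. The summed TPM of 14 thick ascending limb markers was 815.7 to 1155 in controls and 758.0 to 781.7 with lithium at 24 h, and 949.9 to 1161 and 673.4 to 817.6 at 36 h. Of its 10 tested genes 4 had a called negative difference, against 4.78% of all genes, one of them Umod, the uromodulin of the loop of Henle. Another, Ptger3, is also on the principal cell list. Cldn19 alone read 44.0 to 194.0 TPM, and which cells this RNA came from was not tested. Umod read 14.0, 9.64 and 9.79 TPM in controls and 22.2, 15.6 and 26.5 TPM with lithium at 24 h. At 36 h it read 49.0, 70.2 and 64.3 TPM against 34.0, 36.1 and 15.5 TPM. Slc12a1, the defining transporter of that segment, lay between 0.19 and 12.3 TPM in the 12 libraries. Of the endothelial, leukocyte and fibroblast lists 1 gene each (Egfl7 of 11, Cd14 of 14 and Vim of 5) had a called negative difference, against 4.78% of all genes. The summed TPM of endothelial markers was 103.7 to 194.8 in controls and 105.4 to 298.7 with lithium at 24 h, which overlapped, and 163.6 to 289.2 and 75.4 to 126.1 at 36 h. For fibroblast and smooth muscle markers it was 17.8 to 28.8 and 27.9 to 45.1 at 24 h, and 25.7 to 28.5 and 16.2 to 19.8 at 36 h.

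**Figure D5:**
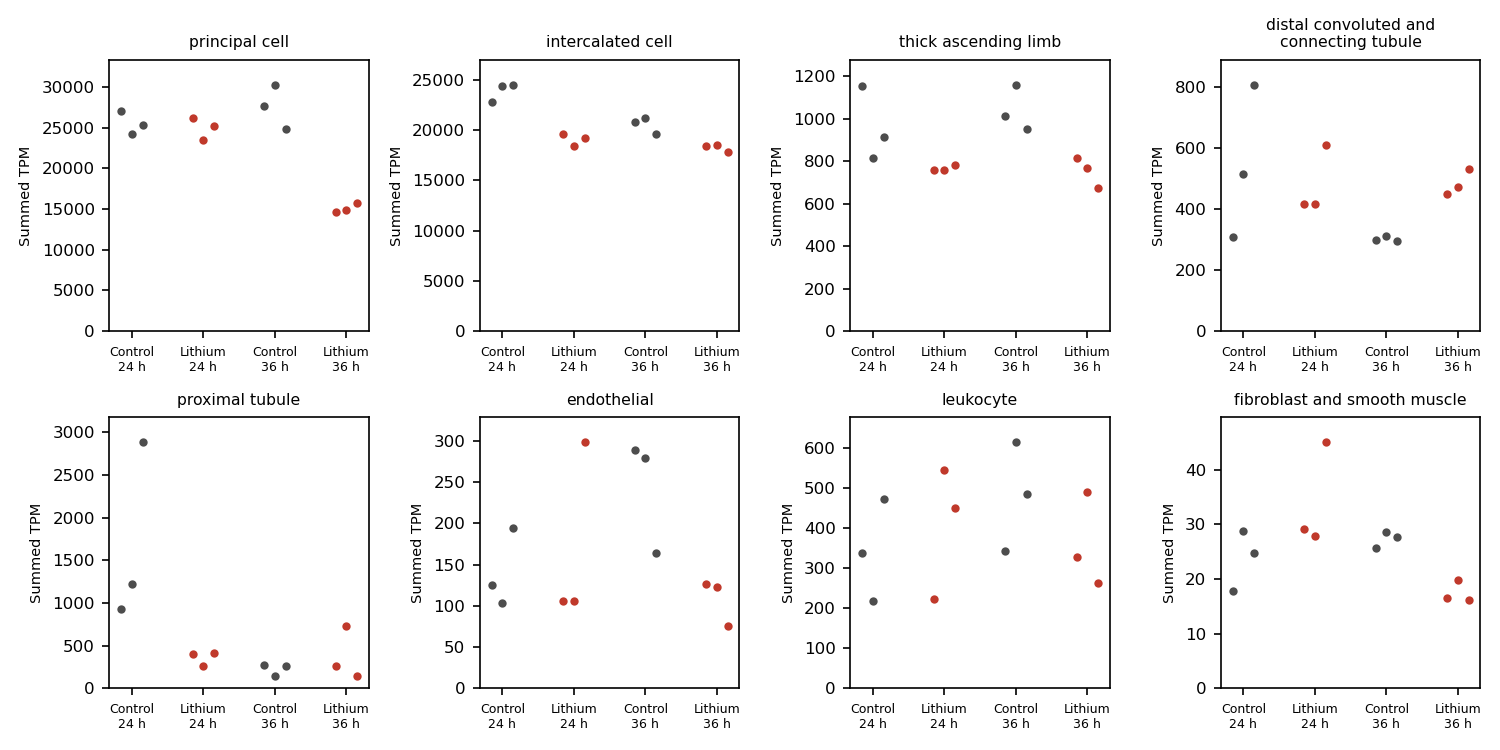
Summed TPM of the marker genes of 8 cell types in each of the 12 libraries, controls in grey and lithium in red; every axis starts at 0. Principal cell markers are lowest with lithium at 36 h (14636 to 15791), and proximal tubule markers are highest in controls at 24 h (932.0 to 2887).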

How the data were processed

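Poly(A) RNA from microdissected rat CCD was amplified with 15 PCR cycles, per the labels' protocols. The authors deposited 1 table of TPM for 32754 genes in 75 libraries, and the submitters' processing notes name STAR 2.5.2b, RSEM 1.2.31 and Rnor_6.0. TPM hides depth, and the cDNA method keeps no strand. From it, genes at 1 TPM or more in at least 3 of the 12 libraries were tested on log2(TPM + 1) with limma 3.58.1 in R 4.3.3 (4 group means, mean-variance trend), with Benjamini-Hochberg adjusted p below 0.05 as a call. A fold on this scale understates changes of low genes. On simulated data of 12492 genes the test of the difference recovered 73 of 100 genes changed by 1 and 95 of 100 changed by 2 on the log2 scale, and called 13 unchanged genes. The simulated libraries were independent replicates, and the changed genes had a mean log2(TPM + 1) above 2. These figures therefore do not cover libraries that share a rat or a set, or genes of low level. Named genes are the 15 largest positive and negative called differences (mean of 5 TPM or more in a group), a panel of 11 transport genes, and up to 4 called members of smallest p per list; other genes were chosen after their values were seen. The gene lists and the comparison were chosen with earlier results of these data known. No 2 libraries were identical. Some genes that the rules select are not reported here. Alternatives were other pseudocounts, filters, scalings and sources of spread, a replicate block, and leaving out each library.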

Additional observations from a re-analysis of the deposited data

Results flagged for a closer look

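A set of 144 genes had a lithium effect called at both times with opposite signs, and a difference called with limma. Among the named genes reported here, those with lithium below control at 24 h and above it at 36 h had these differences on the log2 scale: Crb2 8.28, Pck1 3.75, Rd3l 3.25, Ddah1 2.88, Lgals1 2.76, Isg15 2.03, Nr4a1 1.89, Dusp1 1.69, Ddit3 1.62, Bhlhe40 1.43, Nr1d2 1.29 and Ajuba 1.13. Those with lithium above control at 24 h and below it at 36 h had these: Hsd11b2 −1.17, Umod −2.02, Hspb8 −2.31, Apcdd1 −2.67, RT1-CE3 −2.69, Ints7 −2.71, Znf768 −3.20, Rasl11a −3.30, Alox15b −4.04 and RT1-CE1 −4.14. The effect of the stress transcription factor gene Ddit3 was −0.59 at 24 h and 1.04 at 36 h, and that of the small heat shock protein gene Hspb8 was 1.27 at 24 h and −1.04 at 36 h. Ajuba, a LIM protein that restrains Hippo signalling, had effects of −0.54 at 24 h and 0.59 at 36 h. Pck1 belongs to the proximal tubule list and read 97.6 to 313.6 TPM in controls at 24 h. At 36 h its control and lithium libraries overlapped, with 19.9 TPM in a control and 19.4 TPM in a lithium library. Its adjusted p in limma was 0.154 with the spread of the 8 groups. RT1-CE1 and RT1-CE3 share reads with other class I genes, so their values are uncertain. None of these named genes was called with sets of libraries as units, and diet and rat cannot be told apart where a group is 1 such set.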

How the results depend on the processing

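No named difference changed sign under the alternatives run, but the balance of 700 higher to 597 lower did turn: 741 to 758 with quantile scaling, 722 to 839 without control 36 h replicate 3, 457 to 462 without lithium 36 h replicate 2 and 1 to 3 with sets as units. The 1297 called differences became 1239 and 1329 with pseudocounts of 0.1 and 5, 1051 without a filter, 1201 at 5 TPM, 1414 and 1499 with median-of-ratios and quantile scaling, 1130 without a trend and 1068 with the spread of 6 groups. With the spread of the 8 CCD groups 200 differences were called (111 higher, 89 lower), and 1244 lithium effects at 24 h, 1931 at 36 h, 302 control changes and 240 lithium changes. With sets as units 4 differences were called (1 higher, 3 lower). The cause of these falls was not tested. Leaving out 1 library at a time gave 901 to 1561 differences, 457 to 722 higher and 405 to 839 lower. It gave 2659 to 3850 effects at 24 h, 3476 to 4821 at 36 h, 942 to 2014 control changes and 796 to 2007 lithium changes. Without control 24 h replicates 2 and 3 and control 36 h replicate 1 in turn, 942, 1010 and 1100 control changes were called. Without lithium 24 h replicate 3 and lithium 36 h replicates 1, 2 and 3 in turn, 983, 796, 899 and 1013 lithium changes were called. Replicate numbers did not pair the libraries: 2 of 18 same-numbered pairs had r above 0.1 (−0.21 to 0.13) and 3 of 12 libraries correlated best with their own number. A fit with the replicate block called 1197 differences. Of 139 named genes, 49 kept their side of the threshold with the spread of the 8 groups and 8 with sets as units. Both counts include Scnn1a, Scnn1g, Slc4a1, Slc26a4 and Slc12a1, which were not called in the main fit either. Among the named genes only Ccl20, Clu and Timp1 kept a call with sets as units. The depth behind TPM is unknown.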

Other observations

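Called differences in the other lists were as follows, where 5.6% of all genes were called positive and 4.78% negative. Cytosolic heat shock genes had 6 positive and 1 negative of 18 tested (median 0.45), and none was called with the spread of the 8 CCD groups. The unfolded protein response had 3 and 3 of 24, and Nrf2 targets had 2 and 5 of 19. Glycolysis had 3 and 2 of 18, fatty acid oxidation 2 and 1 of 23, and sterol and fatty acid synthesis 2 and 1 of 22. Inositol enzymes and GSK3 genes, which encode known targets of lithium, had 0 and 2 of 14. Genes of matrix, proteases and adhesion had 0 and 5 of 21 (0 and 1 with the spread of the 8 groups). Hippo and Wnt targets had 2 and 2 of 17, and STAT3 and acute response genes 2 and 1 of 14. EGF ligands and receptors had 2 and 0 of 10, and D cyclins and CDK inhibitors 1 and 1 of 7. Id genes and TGF-beta or BMP targets had 1 and 0 of 15, and osmolyte genes 0 and 1 of 9. Distal convoluted and connecting tubule genes had 1 and 0 of 10. Genes that respond to glucocorticoids and mineralocorticoids had 4 and 2 of 17. Sgk1, the kinase that raises sodium channel activity, averaged 282.1 and 222.6 TPM at 24 h and 501.9 and 179.8 TPM at 36 h in control and lithium libraries (difference −1.16 ± 0.25 SE, adjusted p = 0.011 in limma). Its control level rose and its lithium level did not pass the test of change.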
